A study of Mus musculus with 13 samples.

Results

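The genes that encode the proteins of the cytosolic ribosome were followed in the livers of 13 male B6C3F1 mice, 1 Illumina bead array per animal. They were chosen by name: Rpl or Rps (with or without a p) followed by a number and at most 1 letter. The table held 55 such names among 18138 gene rows, and 47 of them were detected (p under 0.05 against the negative control beads) on 4 arrays or more, which left them among the 8431 genes that were tested. Of the 47 genes, 25 encode proteins of the large subunit and 22 encode proteins of the small subunit. On all 13 arrays 43 of them were detected.

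Exposure began when the mice were 7 days old. The DCA group (4 mice) drank water with dichloroacetic acid at 3.5 g/L, and the PB group (5 mice) drank water with phenobarbital at 0.06%, for 10 weeks in both cases. Deionized water followed for 90 weeks, and the control group (4 mice) had deionized water alone. The comparisons ask what remained of the exposures in livers taken long after they ended. Pieces of archived frozen liver were used whole, so that fewer cells of a type and less RNA per cell cannot be told apart.

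A ribosome is built from a large and a small subunit, each a core of ribosomal RNA dressed with many small, mostly basic proteins that are needed in nearly equal numbers. The large subunit joins amino acids and passes the new chain out through a tunnel, while the small subunit reads the messenger RNA. Messenger RNAs of ribosomal proteins are abundant in every cell, and most begin with a C followed by a run of pyrimidines, the TOP motif, through which the kinase mTOR controls their translation when nutrients and growth signals change. In liver, ribosome production is known to follow feeding and regeneration.

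The start sites show this shared feature only in part. RefSeq promoter windows (assembly GRCm38.p6) were matched for 37 of the 47 genes. A C at the annotated first base with C or T at the next 4 stood at the start of 7 of the 37 genes (18.9%), against 3.0% of all 27025 genes with a window. The 7 are printed because they carry the motif at the annotated base, each with 15 bases before the start and 15 from it, and the capitals mark the first 5 bases of the transcript.
Rpl28 (chr7:4792950-4792979, plus strand): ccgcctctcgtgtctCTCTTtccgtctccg
Rpl35 (chr2:39005117-39005146, minus strand): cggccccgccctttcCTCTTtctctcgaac
Rpl38 (chr11:114668565-114668594, plus strand): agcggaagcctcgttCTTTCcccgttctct
Rps10 (chr17:27635230-27635259, minus strand): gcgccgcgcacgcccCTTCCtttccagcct
Rps15a (chr7:118116133-118116162, minus strand): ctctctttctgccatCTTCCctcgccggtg
Rps21 (chr2:180257364-180257393, plus strand): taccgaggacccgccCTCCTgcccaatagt
Rps6 (chr4:86857353-86857382, minus strand): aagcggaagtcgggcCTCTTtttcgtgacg
Rps21 has a second annotated start without the run. In other genes a run lies a few bases from the annotated base, as in the next 4, which are shown because their levels are described further on.
Rpl7a (chr2:26910792-26910821, plus strand): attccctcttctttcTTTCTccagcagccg
Rps7 (chr12:28635939-28635968, minus strand): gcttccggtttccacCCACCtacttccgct
Rpl13a (chr7:45128731-45128760, minus strand): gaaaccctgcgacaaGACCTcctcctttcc
Rps2 (chr17:24720048-24720077, plus strand): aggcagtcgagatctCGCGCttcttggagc

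With a run allowed to start within 10 bases of the annotated start, the share was 25 of 37 genes (67.6%), against 33.3% of all genes. Other short motifs were searched on both strands of the whole window. CGGAAG, the core that ETS factors such as GABP bind, lay in 27 of the 37 windows (73.0%), against 18.8% of all windows. GGGCGG, the GC box, lay in 23 (62.2%, against 38.2%), AAGATGG, a core bound by YY1, in 7 (18.9%, against 7.3%), and TATAAA, the TATA box, in 4 (10.8%, against 15.7%). These are matches of letters in a window and describe the promoters, not binding in these livers.

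**Figure D1:**
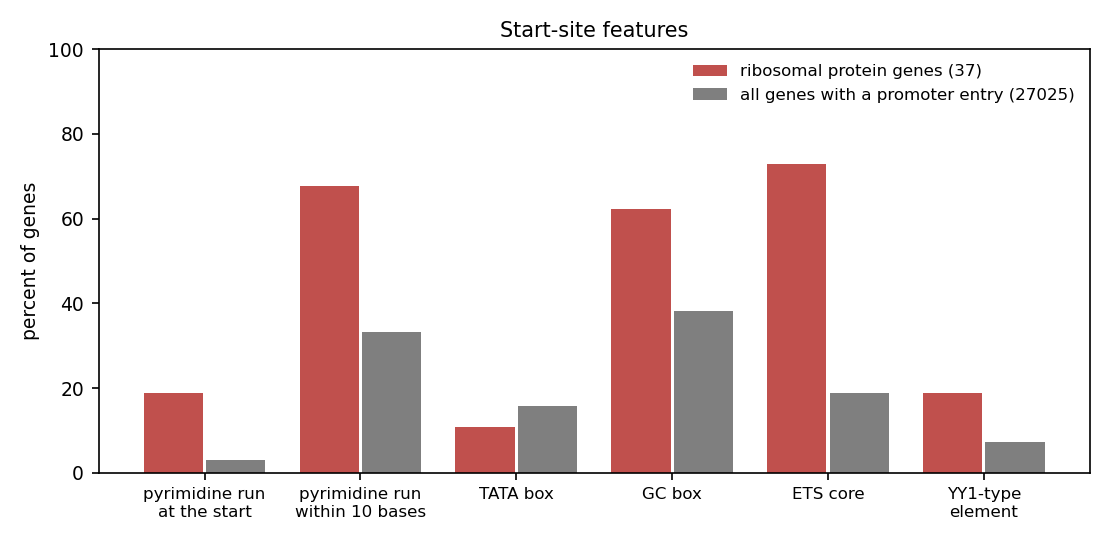
Share of genes, in percent, whose promoter window holds each feature, for the 37 ribosomal protein genes with a window (red) and all 27025 genes with one (grey). The ETS core shows the widest gap, 73.0% of the ribosomal protein genes and 18.8% of all genes, and the TATA box is the 1 feature with the smaller share among the ribosomal protein genes.

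The detection rule left out 8 of the 55 names. Rpl14, Rpl17, Rpl6, Rplp2 and Rps23 were detected on 0 arrays, Rplp0 and Rps27a on 1, and Rpl37 on 2. The raw intensity of Rpl37 ran from 1062 to 4066, but its row combines several probes and its combined detection p-value stayed high, whereas the 5 undetected names ran from 88.9 to 116, the level of the negative control beads. Just inside the rule lay Rpl4 with 4 arrays, Rpl27a with 6 and Rpl21 with 7, all 3 of them combined rows. Their raw intensities ran from 115 to 334, from 147 to 390 and from 95.6 to 124. Rpl5 and Rpl11, which dock with a small ribosomal RNA and bind Mdm2 when ribosome assembly fails, were not analysed here under their own names.

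Mean raw intensity was 232 to 462 on the DCA arrays, 188.6 to 356 on the PB arrays and 234 to 388 on the control arrays, and between 7141 and 8458 genes passed detection on each. Values below are normalized log2 intensities. They depend on the probe as well as on the RNA, so a gene is compared only with itself across livers. Hepatocyte markers, the defining markers of the labelled tissue, were tested in 5 of 7 cases and averaged 11.06 to 11.17 in DCA, 10.91 to 11.25 in PB and 10.92 to 11.21 in control livers.

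Ribosomal protein genes differed more between mice of one group than between groups. Averaged over the 47 genes, the level was 10.00, 10.06, 10.09 and 10.17 in the DCA livers, 10.35, 9.75, 9.72, 10.06 and 9.85 in the PB livers, and 10.22, 10.18, 9.97 and 9.99 in the control livers. The PB livers held both the highest value (PB 1) and the 3 lowest (PB 3, PB 2 and PB 5), and the groups overlapped. Group means were 10.08 ± 0.07 in DCA, 9.95 ± 0.26 in PB and 10.09 ± 0.13 in control (SD, n = 4, 5 and 4). Of the 47 genes, 24 had their highest level in PB 1 or control 1, and 24 had their lowest in PB 2 or PB 3. The share of all tested genes with their extremes in these livers was not counted. PB 3 was also the array with the lowest mean raw intensity (188.6) and the fewest genes detected (7141).

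**Figure D2:**
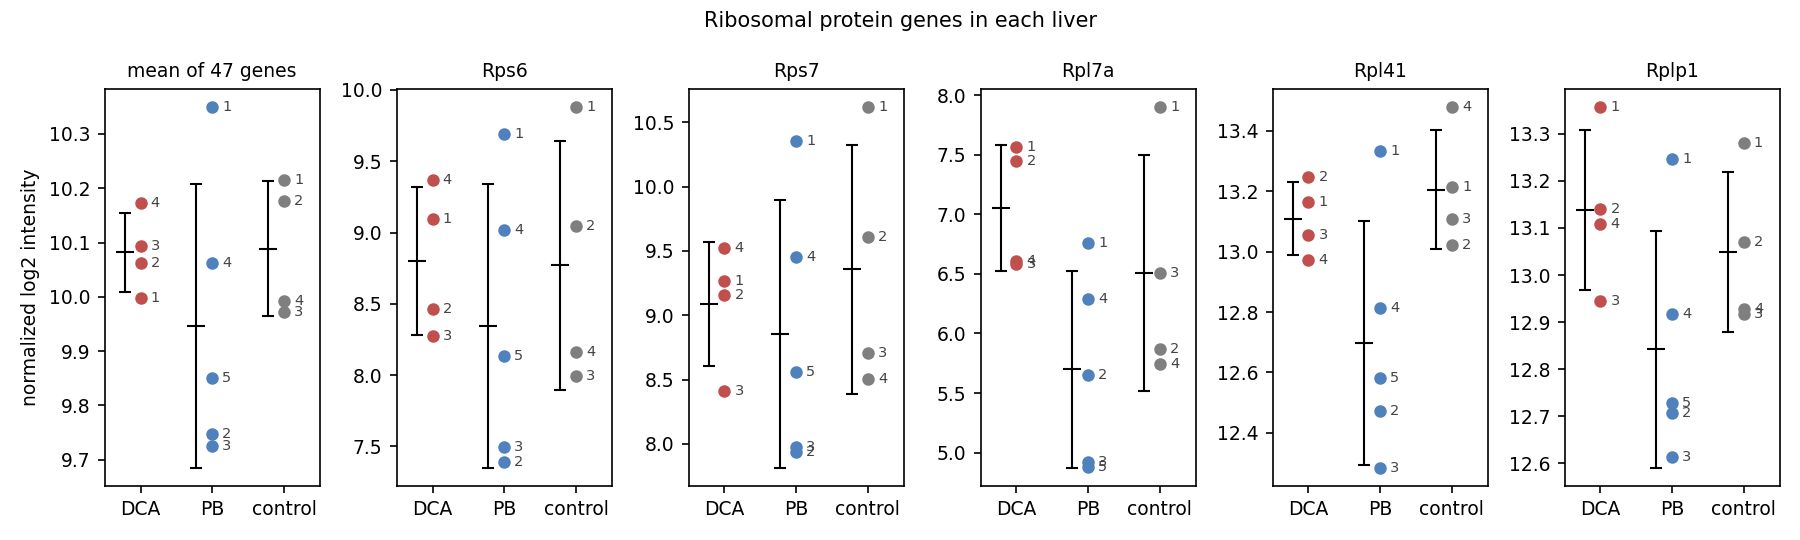
Normalized log2 intensity in each liver for the mean of the 47 ribosomal protein genes and for Rps6, Rps7, Rpl7a, Rpl41 and Rplp1, by group. Points are livers with their replicate number, and bars give the group mean ± SD. PB 1 stands at the top of the PB group in all 6 panels, and the groups overlap in each.

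The widest ranges over the 13 livers were those of Rpl7a (8.09-fold from lowest to highest), Rps7 (6.43-fold), Rps2 (5.68-fold), Rps6 (5.63-fold) and Rpl24 (5.51-fold). The fold of Rpl7a rests on the background correction, since its lowest raw intensity was 103, within the range of the undetected names. Rps6 is the small subunit protein that S6 kinases phosphorylate. Its level was 9.09, 8.46, 8.28 and 9.37 in DCA livers, 9.69, 7.39, 7.50, 9.02 and 8.13 in PB livers, and 9.88, 9.05, 7.99 and 8.16 in control livers. Rps7, a small subunit protein that binds Mdm2 in human cells, had 9.26, 9.16, 8.41 and 9.52 in DCA livers, 10.35, 7.93, 7.97, 9.45 and 8.56 in PB livers, and 10.62, 9.61, 8.70 and 8.50 in control livers. Both genes were highest in control 1 and then PB 1, and both were lowest in PB 2 and PB 3. Rps2, at the channel where messenger RNA enters the small subunit, had 11.12, 10.72, 10.35 and 11.12 in DCA livers, 11.22, 10.15, 9.12, 10.76 and 9.81 in PB livers, and 11.62, 10.51, 9.23 and 9.50 in control livers. The DCA livers lay close together for Rps2, while the PB and control livers were spread more widely around them.

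After the group means were taken away, a large block of the genes moved together from mouse to mouse. A first component held 67.1% of the variance of the 47 genes within groups, against 36.9% for all tested genes. That share also depends on the number of genes. The values were not scaled by gene, so genes with wide ranges, such as Rps7, Rps6 and Rps2, weigh most in it. Over the 13 livers, 13 members had a correlation above 0.8 with the mean of the other members. The highest were Rps13 (0.92), Rps9 (0.91), and Rps4x (0.90), which is encoded on the X chromosome. Rps13 had 9.15, 9.16, 9.05 and 9.55 in DCA livers, 9.94, 8.61, 8.90, 9.31 and 9.03 in PB livers, and 9.67, 9.69, 8.85 and 9.04 in control livers. Its highest livers were PB 1, control 2 and control 1.

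The block did not include the whole family. Another 13 members had a negative correlation with the rest, lowest for Rps25 (−0.69), Rpl38 (−0.58) and Rps24 (−0.55). Rps25, which some viral messenger RNAs need to start translation, had 10.40, 10.41, 10.93 and 10.46 in DCA livers, 10.38, 10.95, 11.30, 10.48 and 10.68 in PB livers, and 10.09, 10.64, 10.71 and 11.24 in control livers. Its lowest liver was control 1, where Rps6 was highest, and its highest was PB 3. Rpl38, which mouse embryos need to translate Hox messenger RNAs, likewise ran from 11.39 in control 1 to 12.54 in control 4. Over all 1081 pairs of members the median correlation was 0.22, against 0.00 for all pairs of tested genes, and 28.4% of member pairs lay above 0.5, against 11.8%. Below −0.5 lay 9.25% of member pairs, against 11.6%. These correlations are descriptions over 13 livers that share the array, its depth and the normalization.

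The member component was close to the main axis of the whole table, with a correlation of 0.94 to the first component of all tested genes, which include the members. Of the 8384 genes that had no part in the member component, 133 followed it with a correlation above 0.9 and 36 with one below −0.9 (2.02%). The spread was not unusual in size: the median SD within groups was 0.303 for members and 0.268 for all tested genes. The groups accounted for a median of 15.8% of a member's variance, against 17.5% for all tested genes. The 7 genes with the pyrimidine run at the annotated start had a median correlation with the rest of −0.07, and the 30 without it one of 0.72. The 7 ran from −0.58 (Rpl38) to 0.86 (Rps6), with Rpl35 at 0.68 and Rps15a, whose signal is weak, at −0.07. With the run allowed within 10 bases, the medians were 0.56 for the 25 genes with it and 0.81 for the 12 without it. Both splits follow the annotated start, so they cannot tell whether genes with TOP messenger RNAs move with the family.

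**Figure D3:**
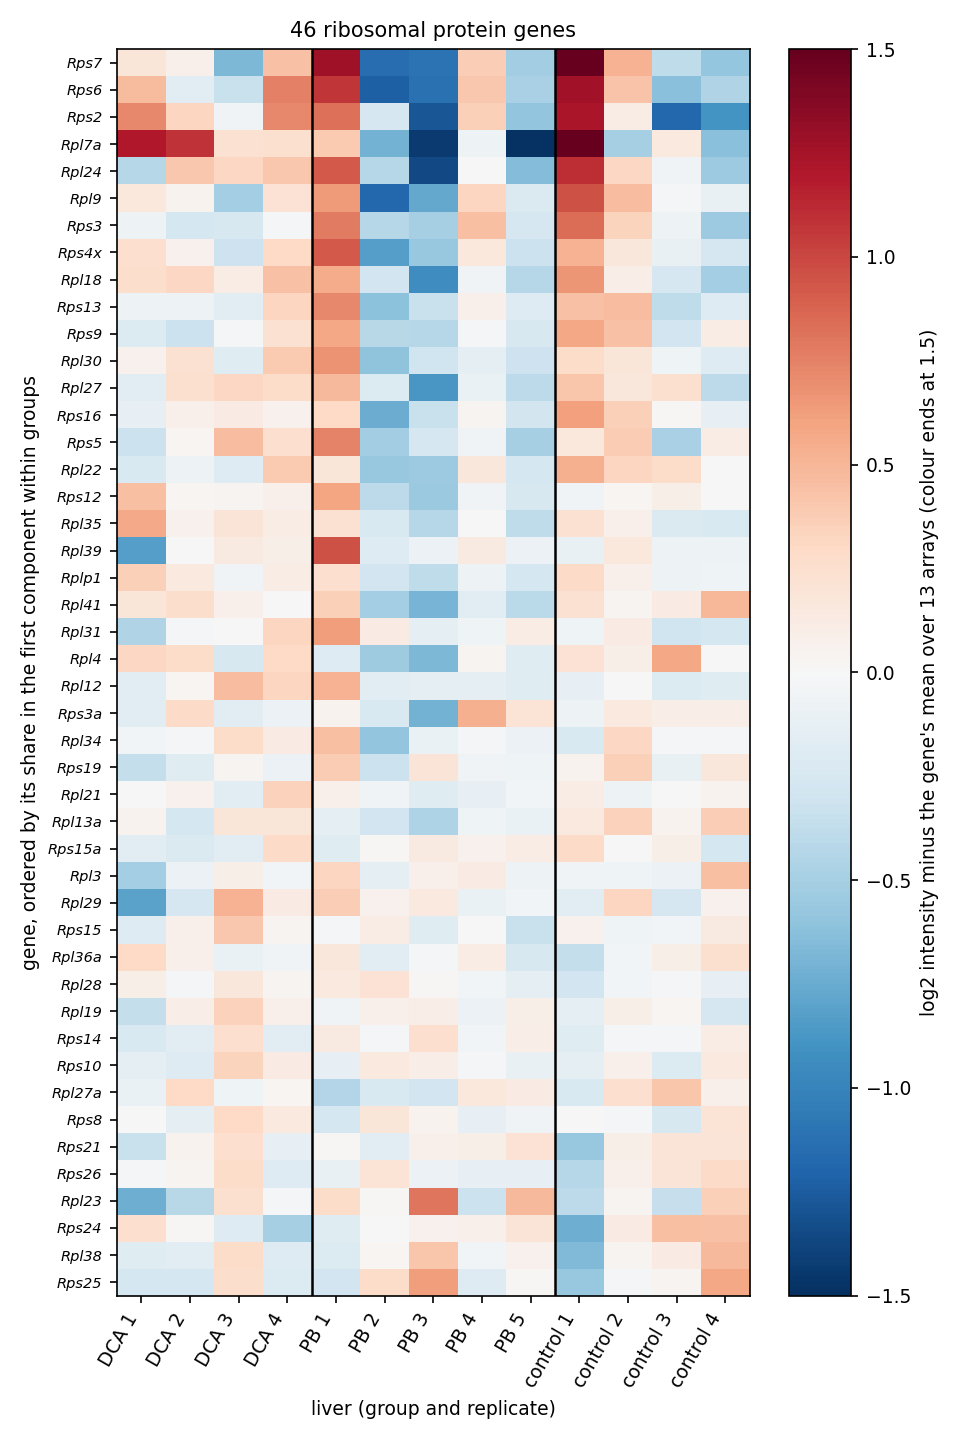
Log2 intensity of 46 of the 47 ribosomal protein genes in each liver minus that gene's mean over the 13 arrays (colour), with livers in columns and genes ordered by their share in the first component within groups. The columns of PB 1 and control 1 are red at the top, where Rps7, Rps6 and Rps2 stand, and the columns of PB 2 and PB 3 are blue there. At the bottom, Rps24, Rpl38 and Rps25 lie below their means in PB 1 and control 1. Rps25 lies above its mean in PB 2 and PB 3 and Rpl38 in PB 3, while Rpl38 in PB 2 and Rps24 in both stand near their means.

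The DCA and control groups were compared first. No ribosomal protein gene passed the test (limma, adjusted p under 0.05), and neither did any other of the 8431 genes (0%). At an unadjusted p under 0.05 there were also 0 of 47 members, against 4.39% of all tested genes. The members split into 22 higher and 25 lower in DCA (lower in 51% of all tested genes), with a median log2 difference of −0.02, against −0.01 for all tested genes. Differences ran from −0.35 to 0.61 with a median standard error of 0.20.

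Among the members with higher means in DCA, Rps2 had a log2 difference of 0.61 ± 0.50 (SE), Rpl7a 0.55, and Rpl12, at the base of the stalk that recruits elongation factors, 0.29. Among those with lower means were Rpl9 (−0.35), Rpl22 (−0.31), Rps9 (−0.29) and Rps3 (−0.29), the last a protein at the messenger RNA entry that also acts in DNA repair. Each of these had an adjusted p of 0.995. Control 1 weighed on several: without it the difference was 1.08 for Rps2, 1.003 for Rpl7a, −0.14 for Rpl9, −0.17 for Rps9 and −0.05 for Rps3. Without control 3 Rps2 stood at 0.28, and with the background fitted on all rows Rpl7a stood at 0.17. Rpl28 alone had groups that did not overlap, which 1.06% of all tested genes did in the same direction. Its level was 12.23, 12.13, 12.32 and 12.19 in DCA livers, against 11.86, 12.11, 12.12 and 12.03 in control livers. The lowest DCA liver stood only just above the highest control liver, and the log2 difference was 0.19 ± 0.12 (SE, adjusted p = 0.995).

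The PB and control groups were compared next. Here 0 of 47 members passed the test, against 0.083% of all tested genes (7 genes). Means lay lower in PB for 33 of the 47 genes (70.2%, against 51% of all tested genes) and higher for 14, with a median log2 difference of −0.10, against −0.01 for all. When arrays were scaled to equal medians instead of quantiles, 43 of 47 lay lower (91.5%). The median was then −0.26, against 0.04 for all tested genes under that scaling. That was the widest split of the processing settings. The others ran from 67.3% lower without a filter to 72.3% in the authors' normalized values. The share of all tested genes lower under median scaling was not counted. The PB mean was the lowest of the 3 groups in 28 of the 47 genes and the highest in 9. This was not counted over all tested genes, and the members vary together, so these counts are a description only. An unadjusted p under 0.05 was reached by 4 members, all lower in PB, and by 10.1% of all tested genes. Those lower in PB made up 5.43% of all tested genes.

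Those 4 were Rpl13a, Rpl4, Rpl41 and Rpl22, all of the large subunit. Rpl13a, which in human cells leaves the ribosome after interferon to silence inflammatory messages, had 7.77, 7.63, 7.46, 7.86 and 7.82 in PB livers, against 8.06, 8.27, 7.97 and 8.30 in control livers. Every PB liver lay below every control liver, as in 1.91% of all tested genes, with a log2 difference of −0.44 ± 0.13 (SE, adjusted p = 0.297). In DCA livers Rpl13a had 7.97, 7.66, 8.10 and 8.10, which overlapped both other groups.

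Rpl41, a very short protein at the contact between the subunits, had 13.33, 12.47, 12.28, 12.81 and 12.58 in PB livers, against 13.21, 13.02, 13.11 and 13.48 in control livers. Only PB 1 reached the control range, and the log2 difference was −0.51 ± 0.19 (SE, adjusted p = 0.395). Rpl4, which lines the exit tunnel, had 6.25, 5.91, 5.76, 6.48 and 6.26 in PB livers, against 6.66, 6.53, 7.02 and 6.43 in control livers. PB 4 alone lay within the control range, and the log2 difference was −0.53 ± 0.18 (SE, adjusted p = 0.384). Rpl4 was detected on 4 arrays only, and its difference was −0.19 with the background fitted on all rows. Rpl22, an RNA-binding protein needed for T cell development in mice, had 8.27, 7.52, 7.55, 8.26 and 7.82 in PB livers, against 8.62, 8.41, 8.37 and 8.10 in control livers. The groups overlapped, and the log2 difference was −0.49 ± 0.20 (SE, adjusted p = 0.432).

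Other members with lower means in PB were Rpl7a (−0.80 ± 0.47, SE), Rpl9 (−0.56), Rpl24, which bridges the subunits (−0.51), Rps7 (−0.50), Rps6 (−0.43) and Rps16, whose tail reaches the transfer RNA (−0.42). Higher means in PB were seen for Rpl23, which binds Mdm2 in human cells (0.34), Rpl31 (0.25), Rpl39 (0.17) and Rpl28 (0.16). The median of all 47 was −0.19 without PB 1 and −0.05 without PB 2. The 95% interval of each of these 10 genes crossed 0. Without control 1 the difference was −0.33 for Rpl7a, −0.35 for Rpl9, −0.21 for Rpl24 and −0.06 for Rps6, and without PB 1 it was −1.08 for Rpl7a. With the background fitted on all rows Rpl7a stood at −0.31.

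**Figure D4:**
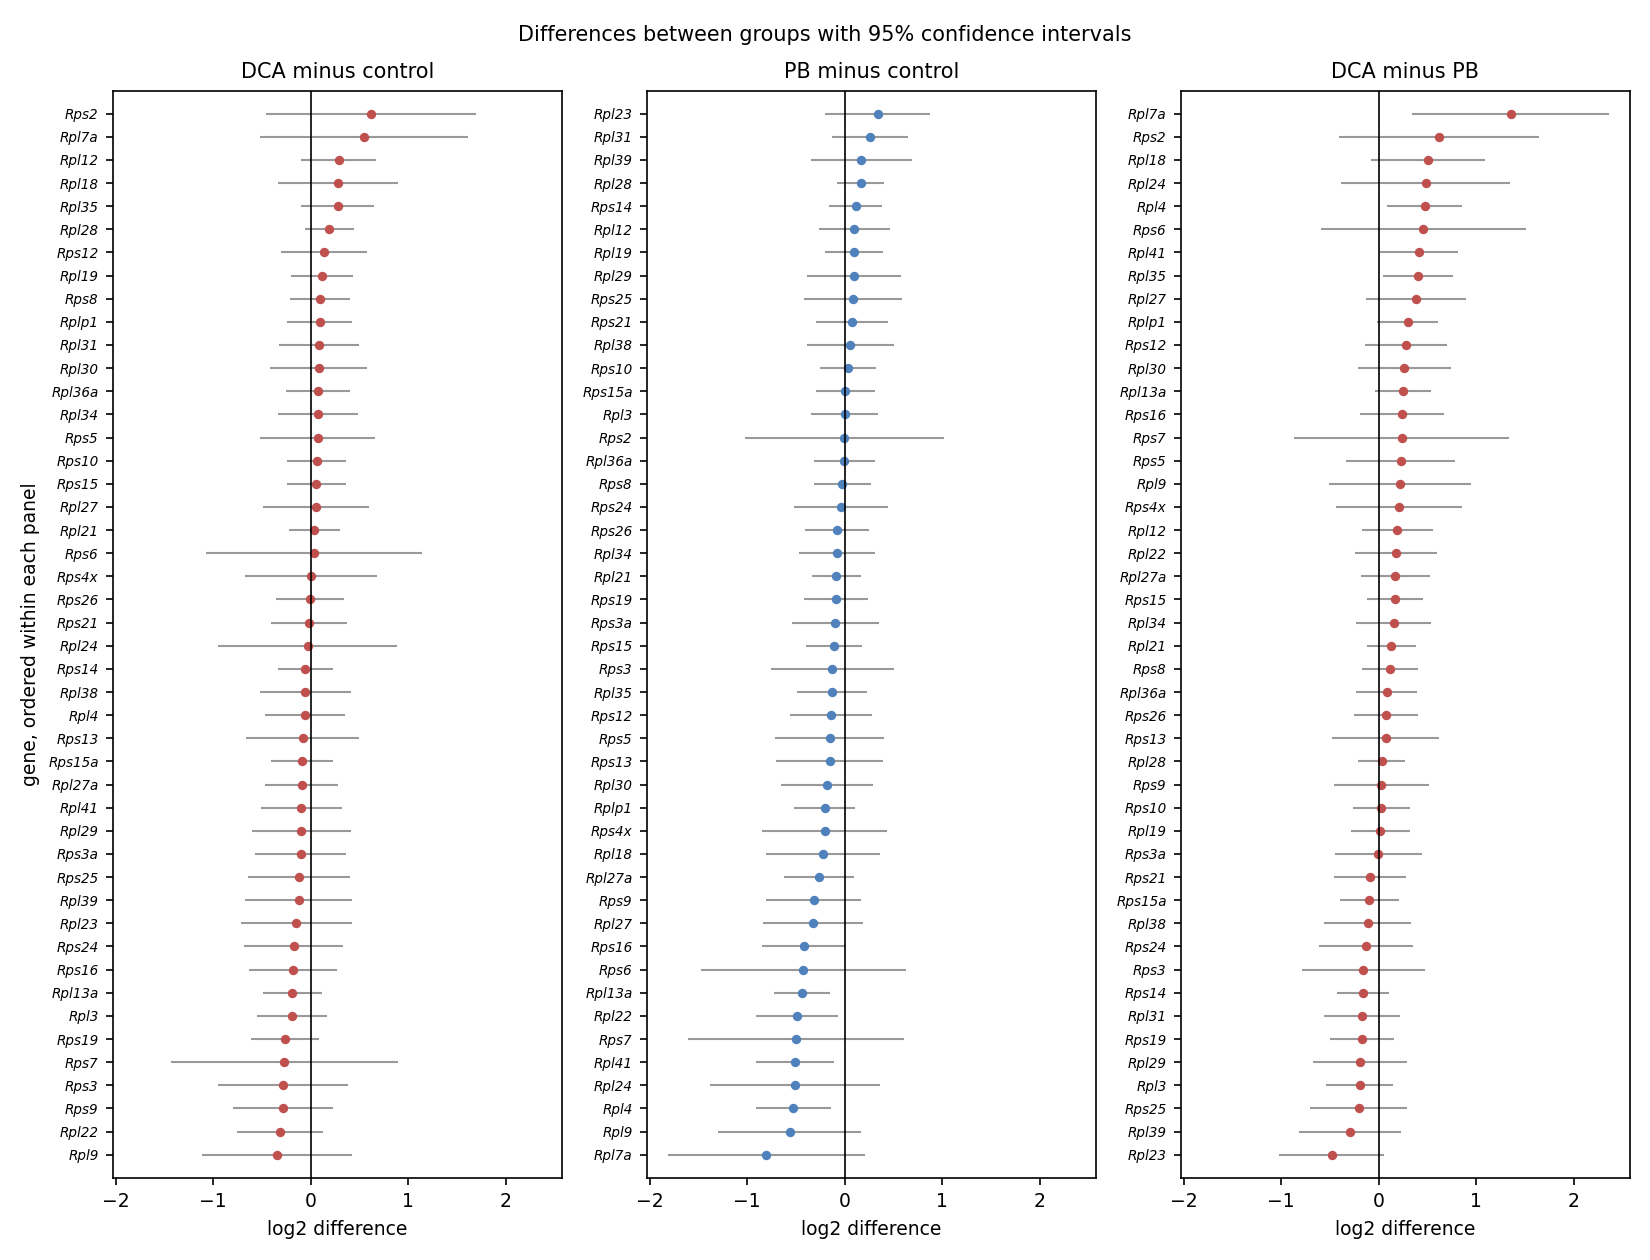
Log2 difference of 46 of the 47 genes with its 95% confidence interval in the 3 comparisons, DCA minus control, PB minus control and DCA minus PB, with genes ordered by size within each panel. Points sit evenly around 0 in the first panel (21 above and 25 below), mostly below it in the second (33 of 46) and mostly above it in the third (32 of 46), and no gene passed the adjusted test in any of the 3.

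The treated groups were set against each other last. This comparison shares its livers with the other 2, which also share the control livers, so the 3 are not independent. Again 0 of 47 members passed, against 0.107% of all tested genes (9 genes), and 33 had higher means in DCA (70.2%, against 49.5% of all) and 14 lower, with a median log2 difference of 0.13, against 0.00 for all. With median scaling 38 were higher (80.9%) and the median was 0.27, against −0.07 for all tested genes. The other processing settings had 67.3% to 70.2% higher, and the share of all tested genes was not counted under median scaling. An unadjusted p under 0.05 was reached by 4 members, against 14.5% of all tested genes, and no member had groups that did not overlap, against 5.98% of all.

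Rpl7a, a large subunit protein, had the largest difference of any member. It had 7.57, 7.45, 6.59 and 6.61 in DCA livers, 6.76, 5.65, 4.93, 6.29 and 4.88 in PB livers, and 7.90, 5.87, 6.51 and 5.74 in control livers. PB 1 alone lay within the DCA range, while control livers overlapped both groups. The log2 difference of DCA and PB was 1.35 ± 0.47 (2.55-fold, 95% interval 0.34 to 2.36, adjusted p = 0.239). It was 0.49 with the background fitted on all rows, 0.59 without background correction and 0.67 in the authors' normalized values.

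The other 3 were Rpl4 (0.47 ± 0.18, adjusted p = 0.266, but 0.16 with the background fitted on all rows), Rpl35 (0.40 ± 0.17, adjusted p = 0.291) and Rpl41 (0.41 ± 0.19, adjusted p = 0.328). Rpl35 sits at the mouth of the exit tunnel and had 11.49, 10.98, 11.11 and 11.03 in DCA livers, against 11.14, 10.69, 10.48, 10.91 and 10.53 in PB livers. As for Rpl7a, PB 1 was the liver that reached the DCA range. When arrays were weighted by their estimated quality, Rpl7a (1.60, adjusted p = 0.0339) and Rpl41 (0.52, adjusted p = 0.0499) passed, as did 305 of all genes (3.62%). PB 1 had the lowest weight of the 13 arrays (0.35), so that fit counted this liver least. Lower means in DCA were found for Rpl23, which had 11.94, 12.26, 12.92 and 12.65 in DCA livers, against 12.94, 12.69, 13.48, 12.35 and 13.16 in PB livers (−0.48 ± 0.25, adjusted p = 0.392), and for Rpl39 (−0.29) and Rps25 (−0.21). An F test over the 3 groups called 0 of 47 members, against 0.107% of all tested genes, and 4 members had an unadjusted p under 0.05, against 11.3% of all.

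By role, the stalk was represented by Rplp1 and by Rpl12 at its base, since Rplp0 and Rplp2 were not detected well enough. Rplp1 had 13.36, 13.14, 12.94 and 13.11 in DCA livers, 13.25, 12.71, 12.61, 12.92 and 12.73 in PB livers, and 13.28, 13.07, 12.92 and 12.93 in control livers. Its log2 difference was −0.21 between PB and control and 0.30 ± 0.15 between DCA and PB (SE, adjusted p = 0.368). Of the proteins around the tunnel exit 4 of 7 were tested (Rpl19, Rpl31, Rpl35 and Rpl39), and their median differences were 0.10 for DCA minus control, 0.13 for PB minus control and −0.08 for DCA minus PB.

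Of 18 genes whose human counterparts are changed in Diamond-Blackfan anaemia, a failure of red cell formation, 9 were tested, and 0 passed in any comparison. Rps19, the best known of them, had 10.38, 10.56, 10.78 and 10.66 in DCA livers, against 10.79, 11.10, 10.63 and 10.91 in control livers, a log2 difference of −0.26 ± 0.16 (SE, adjusted p = 0.995). The groups overlapped for Rps19. Of the genes on the X chromosome, Rps4x, Rpl36a and Rpl39 were tested and none passed.

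Rows that the table names as similar to a ribosomal protein stand outside the name rule and were added after the table had been seen. There were 8 of them, similar to L35a, L23a, S17, L5, L37a, S27, S9 and S20, and all were detected on 13 arrays with 0 called. Probes for such near-identical copies cannot be kept apart from the true gene by name. The row similar to S9 had a log2 difference of −0.28 ± 0.18 (SE) for DCA minus control, beside −0.29 ± 0.24 for Rps9 itself. The row similar to L5 had −0.05 and 0.09 for DCA and PB minus control. Of 11 relatives with other names 4 were tested, and the largest differences were those of Rpl7l1, at −0.44 for PB minus control (adjusted p = 0.434) and 0.50 for DCA minus PB (adjusted p = 0.245).

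Genes that work with the ribosome gave no call either: 0 passed in each of the lists below in each comparison. Of 43 translation factors 31 were tested, with median differences of 0.01 for DCA minus control, −0.01 for PB minus control and −0.03 for DCA minus PB. The 11 tested of 16 other genes with TOP messenger RNAs had medians of −0.05, 0.00 and −0.04 in the same order. Eef2, the elongation factor that moves the ribosome along its message, had 0.44 ± 0.45 (SE) for DCA minus control and 0.54 ± 0.43 for DCA minus PB.

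Of 58 ribosome assembly genes 32 were tested, with medians of 0.04, 0.00 and 0.01 for DCA minus control, PB minus control and DCA minus PB. Pes1, an assembly factor of the large subunit, had the largest difference for PB minus control (0.71 ± 0.17 SE, adjusted p = 0.2), and Mrto4, which holds the place of the stalk during assembly, had −0.47 ± 0.13 (adjusted p = 0.244). The 9 tested of 14 genes of RNA polymerase I, which transcribes ribosomal RNA, had medians of −0.18, −0.08 and −0.07. Twistnb, one of its subunits, had −0.49 ± 0.24 for DCA minus control.

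Upstream, 12 of 29 genes around mTOR and the S6 kinases were tested, with medians of 0.04, −0.04 and 0.13. Eif4ebp2, a repressor of cap-dependent translation that mTOR inactivates, had 0.44 ± 0.14 (SE, adjusted p = 0.995) for DCA minus control and 0.47 ± 0.13 (adjusted p = 0.174) for DCA minus PB. Rps6ka1, a kinase of the RSK family, had 0.53 ± 0.19 for PB minus control (adjusted p = 0.392). Downstream, 16 of 23 genes that carry nascent chains from the ribosome into the endoplasmic reticulum were tested, with medians of 0.18, 0.00 and 0.22. Srprb, a subunit of the receptor for the signal recognition particle, had 0.65 ± 0.17 for DCA minus PB (SE, adjusted p = 0.171), and Srp9 had 0.48 ± 0.20 (adjusted p = 0.291).

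Markers of other cells were set beside these results. Erythroid markers, 5 of 7 tested, averaged 7.70 to 8.44 in DCA livers, 7.49 to 8.38 in PB livers and 8.46 to 9.23 in control livers. The average lay lower in every treated liver than in every control liver, but DCA 4 (8.44) stood only just below control 1 (8.46). Alas2, 1 of the 5, was higher in DCA than in control (0.55), and no erythroid marker passed the test (smallest adjusted p 0.995 for DCA and 0.131 for PB against control). Macrophage markers, 9 of 11 tested, averaged 6.98 to 7.22 in DCA, 6.14 to 7.21 in PB and 6.57 to 8.25 in control livers. All 9 had lower means in PB than in control, as did 51% of all tested genes, without a call. Control 2 stood at 8.25 and the other control livers at 6.57 to 6.83, while PB 1 stood at 6.14. The median liver lay higher in PB (6.99) than in control (6.83). Stellate cell markers, 5 of 7 tested, averaged 7.45 to 8.27 in DCA, 6.77 to 8.33 in PB and 6.81 to 7.90 in control livers. Their lowest livers were PB 1 and control 1, where 24 of the 47 ribosomal protein genes peaked, and Dcn, Lrat and Reln had correlations of −0.80, −0.76 and −0.66 with the member component over the 13 livers, given as a description of genes chosen after their values were seen. Endothelial markers, all 6 tested, averaged 6.30 to 6.63 in DCA, 5.48 to 6.69 in PB and 6.09 to 6.54 in control livers, lowest in PB 1. T and NK cell markers, 4 of 9 tested, averaged 4.76 to 5.33 in DCA, 5.12 to 5.77 in PB and 4.70 to 5.38 in control livers. Neutrophil markers, 2 of 6 tested, spread most in the control livers, with 4.91 to 5.87 in DCA, 4.89 to 6.12 in PB and 4.56 to 7.56 in control livers. Bile duct markers, 2 of 5 tested, averaged 6.08 to 6.63 in DCA, 5.95 to 6.70 in PB and 5.93 to 6.66 in control livers. In these 4 lists, from endothelium to bile duct, the ranges of the 3 groups overlapped. Of B and plasma cell markers 0 of 8 were detected well enough to be tested, and of dividing cell markers 1 of 7 was, Birc5, at 5.81 in PB 1 and at 4.52 to 5.25 in the other livers. The part of other cells in the ribosomal protein values was not tested.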

How the data were processed

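RNA of 13 livers was hybridised to Illumina bead arrays as biotin-labelled cRNA, per the labels. For every gene and array the authors deposited a linear intensity and a p-value of detection. GenomeStudio is named, without a version, per the submitters' processing notes. Probes of a gene had been combined in 4470 of the 18138 rows. A second deposited table held intensity values that the authors had normalized by steps not given in the sources used here.

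The deposited intensity values were background-corrected with limma's normexp model, its noise fitted on the 13668 single-probe rows (offset 16), set on the log2 scale and quantile-normalized. The 8431 genes detected at p under 0.05 on 4 arrays or more were fitted as group means over all 13 arrays with lmFit and eBayes (limma 3.58.1, R 4.3.3). Tests were two-sided with Benjamini-Hochberg adjustment over all tested genes and a threshold of 0.05. The number of arrays limits the precision. The fit was also run on simulated data in which genes varied independently, unlike the members here, and no conclusion is drawn from it. Named genes were those with the largest differences, the smallest p-values and the most extreme correlations in each comparison, beside the genes at the detection threshold and Rps6, Rps27a and the stalk genes. The members and lists were chosen with earlier results of these data known. Alternatives changed the background, normalization, filter, fit and livers. Promoter windows came from RefSeq (GRCm38.p6). No coordinates of array probes were used. The values of 1 member are not reported here singly.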

Additional observations from a re-analysis of the deposited data

Results flagged for a closer look

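In 8 of 69 groups examined for the named genes, 1 liver lay far from the rest of its group, where chance gives about 1 in 20 for independent groups. These genes vary together over the same livers and were named for extreme values, so they are not independent. Rpl12 stood at 10.98 in PB 1, against 10.28 to 10.32 in the other PB livers. Rpl39 appeared in all 3 groups, at 10.48 in DCA 1 (others 11.31 to 11.45), at 12.26 in PB 1 (others 11.11 to 11.44) and at 11.47 in control 2 (others 11.19 to 11.24). Rpl4 stood at 6.20 in DCA 3 (others 6.72 to 6.75). Rpl24 stood at 9.06 in DCA 1 (others 9.80 to 9.89). Rps25 stood at 10.93 in DCA 3 (others 10.40 to 10.46). Rpl3, which reaches toward the catalytic centre of the large subunit, stood at 12.52 in control 4 (others 11.99 to 12.02).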

How the results depend on the processing

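The count of ribosomal protein genes called stayed at 0 under every alternative except array weights, where it was 2 for DCA minus PB (305 of all genes). The median kept its sign under every alternative for PB minus control and DCA minus PB, with ranges of −0.26 to −0.08 and 0.09 to 0.27 over the processing settings. For DCA minus control it ran from −0.07 to 0.01. With livers left out in turn, the medians ran from −0.05 to 0.02 for DCA minus control, from −0.19 to −0.05 for PB minus control and from 0.07 to 0.18 for DCA minus PB. Among the 39 gene and comparison pairs recomputed singly, these changed sign: Rpl39 in PB minus control was −0.026 with median scaling and ran from −0.034 (without PB replicate 1) to 0.25 with livers left out in turn, Rpl28 in PB minus control was −0.044 with median scaling, and Rps6 in DCA minus control ran from −0.23 to 0.40 with livers left out in turn. The cause was not tested. Over all genes, the calls for PB minus control numbered 7, but 2 with the background fitted on all rows or with only the groups compared, 4 without a filter and 12 among genes detected on all arrays. For DCA minus PB they numbered 9, but 1 with the background fitted on all rows, 2 without background correction or in the authors' normalized values, 5 with median scaling, 4 with cyclic loess, 0 without a filter and 16 with only the groups compared. No paired analysis was possible because the replicate numbers only name the mice and pair none across groups. Weak signal limits Rpl21, Rps15a and the low livers of Rpl7a, which lie close to the negative control beads. Detection also limits Rpl4 and Rpl27a, both combined rows, which were detected on 4 and 6 arrays. Their raw intensities ran from 115 to 334 and from 147 to 390.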
